A study of Homo sapiens with 4 samples.

Results

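NEAT1, MALAT1, KCNQ1OT1, TUG1, GAS5 and SNHG1 are long non-coding RNAs (lncRNAs), transcripts that are not known to be translated into protein. They were found by symbol, as 6 of the 23368 features of the deposited table. NEAT1 and KCNQ1OT1 were selected on their measured values in these same libraries, so their levels and ratios are given as a description without a test. MALAT1, TUG1, GAS5 and SNHG1 stand beside them. MALAT1 is retained in the nucleus, and GAS5 and SNHG1 host small nucleolar RNAs (snoRNAs).

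The RNA came from HepG2, a human liver cancer cell line, in 4 libraries with 1 library per condition, so no difference below has a replicate check. One library carries conflicting labels. Its title, shPJA/TGFb1, names a hairpin and TGF-beta1, its treatment label names water, and the series' design text lists a control where it would stand. It is taken here by its title and called the library titled shPJA/TGFb1. The TGFb1 library came from cells given TGF-beta1, a cytokine that signals through SMAD2 and SMAD3, and the protocol states 200 pM for 1 hour. Whether those cells carried a control hairpin is not stated. The shPJA1 library came from cells infected with a lentivirus that expresses a short hairpin RNA against PJA1, an E3 ubiquitin ligase, and the shCtrl library from cells with a control hairpin. The labels do not say whether infected cells were a pool or a clone.

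NEAT1 is the architectural RNA of paraspeckles, nuclear bodies that form around its long isoform together with the proteins SFPQ and NONO. MALAT1 is transcribed next to NEAT1, collects in nuclear speckles beside splicing factors, and like the long NEAT1 isoform has its 3′ end cut by RNase P. KCNQ1OT1 is an imprinted RNA, made from the paternal copy antisense to KCNQ1, that represses neighbouring genes in cis. TUG1 is a broadly expressed lncRNA found in nucleus and cytoplasm. GAS5 and SNHG1 carry snoRNAs in their introns, and their spliced RNAs are known targets of nonsense-mediated decay.

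The libraries held between 990698 reads, in the library titled shPJA/TGFb1, and 2848665 reads, in TGFb1. Values are normalized counts, which are reads divided by the size factor of the library, and 3 reads correspond to 1.71 to 4.89 normalized counts. The hepatocyte markers were detected in every library (10 of 10) and summed to between 30763 normalized counts, in TGFb1, and 36374, in shPJA1. All 9 of them with a mean of at least 20 were below 0 as log2 ratios in TGFb1 over shCtrl, with a median of -0.37, and 2 were lower by 1.5-fold, against 5.13% of all features with such a mean. Between the library titled shPJA/TGFb1 and shPJA1 4 of the 9 were below 0 and the median was 0.03. HNF4A, a hepatocyte transcription factor, had 358.6 normalized counts in the library titled shPJA/TGFb1, 205.0 in TGFb1, 295.3 in shPJA1 and 341.3 in shCtrl. NEAT1 and KCNQ1OT1 were lower in TGFb1 over shCtrl as well, and the part of these markers in that was not tested. Of 8 leukocyte markers 2 had a mean of at least 20. LYZ, or lysozyme, had 1035, 978.4, 1200 and 1343 normalized counts in the order used for HNF4A, lower in both libraries titled with TGFb1, and CD68, a macrophage marker, had 176.0, 95.1, 152.2 and 168.3. PTPRC, which marks leukocytes, and CD3E, which marks T cells, had 0 reads in all 4 libraries. Fibroblast markers summed to at most 13 reads a library and endothelial markers to at most 5. PJA1 stood at 9.78 normalized counts in the library titled shPJA/TGFb1, 38.2 in TGFb1, 15.3 in shPJA1 and 50.3 in shCtrl. SMAD7, an inhibitory SMAD induced by TGF-beta, stood at 158.1, 168.0, 69.3 and 83.0 in the same order. PJA1 bears on the hairpin only and was low in both hairpin libraries, with a ratio of 0.639 (95% counting interval 0.206 to 1.70) between the library titled shPJA/TGFb1 and shPJA1. SMAD7 bears on the treatment, and its level in the library titled shPJA/TGFb1 followed the title and not the water label.

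NEAT1 was lower in both libraries whose titles name TGFb1. It had 713.9 normalized counts in the library titled shPJA/TGFb1 (438 reads), 752.3 in TGFb1 (1321 reads), 1093.1 in shPJA1 (1214 reads) and 1181.6 in shCtrl (1011 reads). The exact Poisson 95% intervals of the first pair were 649 to 784 and 712 to 794, and those of shPJA1 and shCtrl were 1032 to 1156 and 1110 to 1257. The higher pair of libraries thus did not overlap the lower pair, and within each pair the intervals overlapped. NEAT1 was picked for its values, and the share of all features that separate in this way was not counted. The separation is therefore a description of NEAT1 only. These intervals cover counting error only. In bulk RNA, fewer cells with an RNA and less of it per cell cannot be told apart.

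The ratio of NEAT1 was 0.637 in TGFb1 over shCtrl (95% counting interval 0.586 to 0.692) and 0.653 in the library titled shPJA/TGFb1 over shPJA1 (0.584 to 0.729). That is 36.3% and 34.7% lower, in 2 pairs that share no library. With the hairpin as the difference, the ratio was 0.925 in shPJA1 over shCtrl (0.850 to 1.01) and 0.949 in the library titled shPJA/TGFb1 over TGFb1 (0.850 to 1.06), both with an interval that holds 1. The log2 ratio of the pair with the hairpin differed from that of the pair without it by 0.04 ± 0.10 (counting SE). The TGFb1 over shCtrl value does not use the library with the conflicting labels.

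KCNQ1OT1 had the same order of the pairs with a smaller gap. It stood at 906.3 normalized counts in the library titled shPJA/TGFb1 (556 reads), 861.7 in TGFb1 (1513 reads), 1232.6 in shPJA1 (1369 reads) and 1189.8 in shCtrl (1018 reads). Both libraries titled with TGFb1 lay below both others, and counting intervals overlapped within each pair only. As for NEAT1, the RNA was picked for its values and the share of all features with such a separation was not counted. The ratio was 0.724 in TGFb1 over shCtrl (0.668 to 0.785) and 0.735 in the library titled shPJA/TGFb1 over shPJA1 (0.665 to 0.812), or 27.6% and 26.5% lower. It was 1.04 in shPJA1 over shCtrl (0.955 to 1.12) and 1.05 in the library titled shPJA/TGFb1 over TGFb1 (0.953 to 1.16). KCNQ1, which KCNQ1OT1 overlaps in antisense, had 1 read in TGFb1 and 0 in the other libraries. Strand-specific counting is not stated, so reads of the overlapping pair cannot be told apart.

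**Figure D1:**
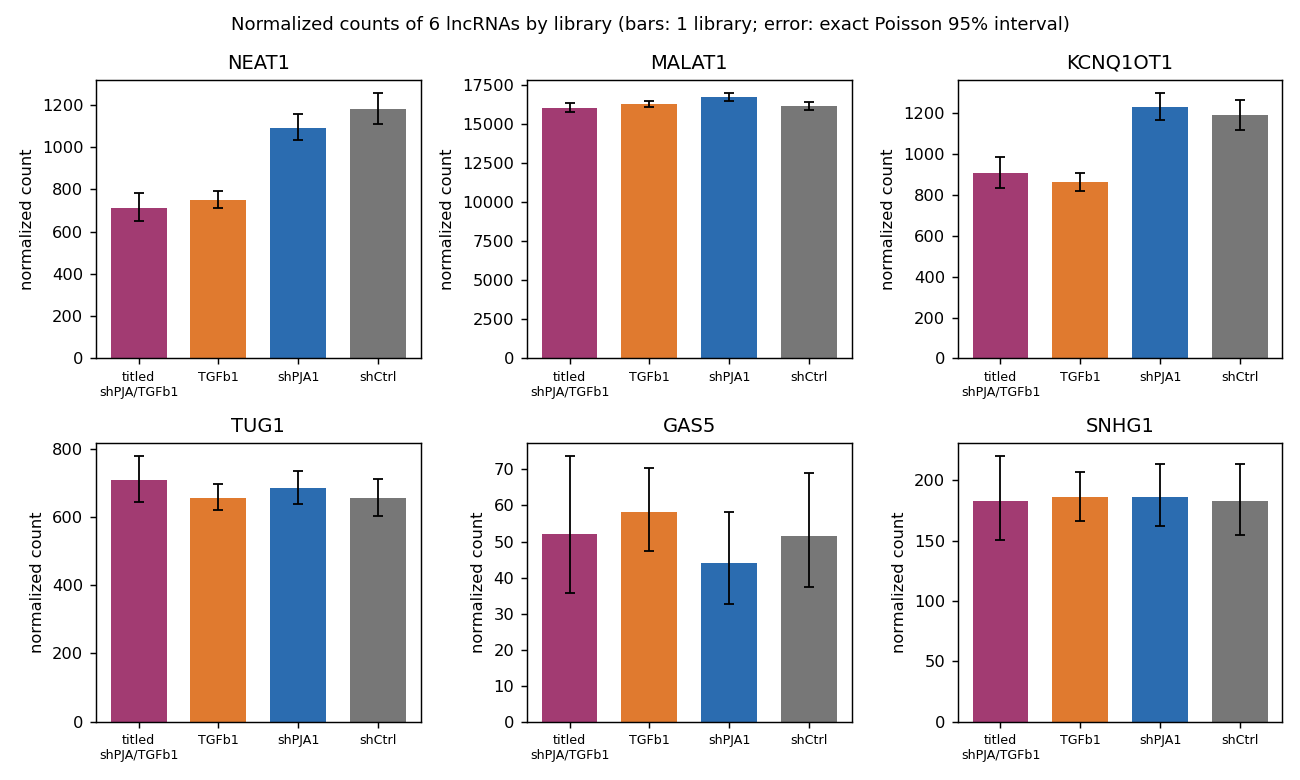
Normalized counts of the 6 lncRNAs in the 4 libraries, 1 panel per RNA with its own linear axis from 0. Each bar is 1 library and its error bar the exact Poisson 95% interval. NEAT1 and KCNQ1OT1 are lower in the libraries titled with TGFb1, at 713.9 and 752.3 and at 906.3 and 861.7.

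MALAT1 was the second most counted feature of every library. It had 16060 normalized counts in the library titled shPJA/TGFb1, 16301 in TGFb1, 16749 in shPJA1 and 16159 in shCtrl, from 9853 to 28622 reads. Its share of all reads was 0.995% in the library titled shPJA/TGFb1, 1.00% in TGFb1, 1.04% in shPJA1 and 1.01% in shCtrl. The highest library was 1.04 times the lowest, the narrowest range after SNHG1. With so many reads, counting intervals excluded 1 at small differences, with 1.04 in shPJA1 over shCtrl (1.01 to 1.06) and 0.959 in the library titled shPJA/TGFb1 over shPJA1 (0.936 to 0.983). These directions depend on scaling. The values became 0.968 and 1.01 once a trend of library values on the GC content of transcripts was removed. Quantile normalization cannot decide the direction, because it gives a ratio of 1 to a feature with the same rank in both libraries, as MALAT1 had. In TGFb1 over shCtrl the ratio was 1.01 (0.988 to 1.03), and 0.902 with the GC trend removed. The log2 ratios of the pair with the hairpin and the pair without it differed by -0.07 ± 0.02 (counting SE), and by 0.17 after that removal.

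TUG1 had 707.4 normalized counts in the library titled shPJA/TGFb1 (434 reads), 656.1 in TGFb1 (1152 reads), 685.2 in shPJA1 (761 reads) and 654.5 in shCtrl (560 reads). The highest library was 1.08 times the lowest, and all 5 ratios, from 1.00 to 1.08, had intervals that hold 1. At 0.054 on the log2 scale, the standard deviation of TUG1 over the 4 libraries was close to the 0.057 that counting alone gives.

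The snoRNA hosts were read less deeply. SNHG1 had 182.6 normalized counts in the library titled shPJA/TGFb1 (112 reads), 185.7 in TGFb1 (326 reads), 186.4 in shPJA1 (207 reads) and 182.3 in shCtrl (156 reads). Its libraries lay within a factor of 1.02. GAS5 had 52.2, 58.1, 44.1 and 51.4 normalized counts in the same order, from 32, 102, 49 and 44 reads. Its ratio was 1.13 in TGFb1 over shCtrl (0.786 to 1.65), and a difference within that range was not detectable at this depth. The snoRNAs encoded within GAS5 had 26 reads in all in the library titled shPJA/TGFb1, 65 in TGFb1, 24 in shPJA1 and 18 in shCtrl. Those within SNHG1 had 10, 29, 15 and 14 reads in that order. As summed normalized counts these were 42.4, 37.0, 21.6 and 21.0 for GAS5 and 16.3, 16.5, 13.5 and 16.4 for SNHG1. The GAS5 sum was thus higher in both libraries titled with TGFb1, on few reads, and this was not tested. None of these 18 snoRNAs reached a mean of 20 normalized counts.

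**Figure D2:**
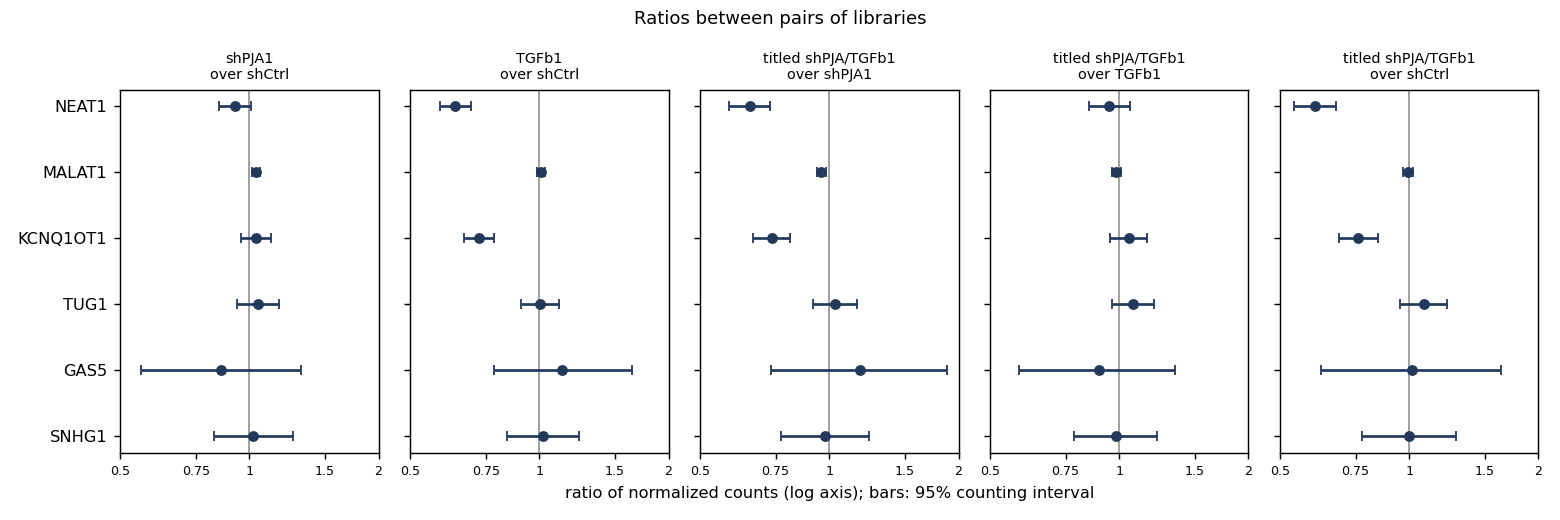
Ratios of normalized counts for the 6 lncRNAs in 5 pairs of libraries, on a log axis, with bars for the 95% counting interval. NEAT1 and KCNQ1OT1 lie below 1 in TGFb1 over shCtrl, at 0.637 and 0.724, and near 1 in shPJA1 over shCtrl, at 0.925 and 1.04.

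RefSeq windows on GRCh38.p14, 250 bases before to 50 after an annotated start, were matched by symbol for 4 of the 6 lncRNAs, all except NEAT1 and KCNQ1OT1. They are printed because the letters of a SMAD motif can be looked for there. MALAT1 has 2 annotated starts, and the downstream one is printed. Sequences run 5′ to 3′ on the strand of the gene, at chr11:65498795-65499094 (+) for MALAT1, chr22:30969015-30969314 (+) for TUG1, chr1:173868996-173869295 (-) for GAS5 and chr11:62855836-62856135 (-) for SNHG1. Capitals mark the first 15 transcribed bases.
MALAT1: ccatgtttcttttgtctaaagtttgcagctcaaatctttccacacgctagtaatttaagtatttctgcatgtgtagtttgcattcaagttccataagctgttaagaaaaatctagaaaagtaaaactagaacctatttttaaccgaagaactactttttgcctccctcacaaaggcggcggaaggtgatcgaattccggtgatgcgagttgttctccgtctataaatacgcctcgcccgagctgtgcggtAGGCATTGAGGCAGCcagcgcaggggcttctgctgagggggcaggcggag
TUG1: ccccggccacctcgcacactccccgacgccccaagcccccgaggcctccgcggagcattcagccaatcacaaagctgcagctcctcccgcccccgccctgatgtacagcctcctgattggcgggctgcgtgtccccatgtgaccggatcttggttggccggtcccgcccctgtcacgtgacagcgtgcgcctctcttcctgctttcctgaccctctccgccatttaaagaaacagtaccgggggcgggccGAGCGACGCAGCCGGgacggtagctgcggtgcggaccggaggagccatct
GAS5: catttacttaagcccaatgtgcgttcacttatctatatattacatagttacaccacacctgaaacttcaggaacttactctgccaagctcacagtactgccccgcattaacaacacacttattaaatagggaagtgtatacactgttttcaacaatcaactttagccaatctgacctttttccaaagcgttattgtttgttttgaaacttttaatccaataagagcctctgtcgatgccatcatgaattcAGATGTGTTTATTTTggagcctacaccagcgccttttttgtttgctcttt
SNHG1: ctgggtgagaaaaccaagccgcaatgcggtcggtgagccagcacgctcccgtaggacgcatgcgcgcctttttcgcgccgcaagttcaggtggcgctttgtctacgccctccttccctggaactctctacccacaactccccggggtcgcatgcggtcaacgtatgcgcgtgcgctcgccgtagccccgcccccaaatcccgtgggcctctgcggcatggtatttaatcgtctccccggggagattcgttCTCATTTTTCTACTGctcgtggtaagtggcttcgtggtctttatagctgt

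The letters CAGAC, the core of a SMAD-binding element, or GTCTG on the other strand, occurred in 0 of the 5 windows of these genes, counting the upstream MALAT1 start. They occurred in 45.3% of the 35116 windows of the same length. TATAAA, the TATA box letters, on either strand occurred in the downstream MALAT1 window and the SNHG1 window, and in 11.5% of all windows. The MALAT1 match lies before the start on the strand of the gene, and the SNHG1 match after the start on the other strand. The 2 motifs share no end letters and cannot overlap. A match or its lack describes these letters in this window and no more.

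Levels of different genes can be set side by side only per length, here normalized counts per kb of the longest GENCODE 29 transcript. MALAT1 (8708 bases, 1 exon) stood at 1844 per kb in the library titled shPJA/TGFb1, 1872 in TGFb1, 1923 in shPJA1 and 1856 in shCtrl. TUG1 (7469 bases, 3 exons) had 87.6 to 94.7 per kb, and SNHG1 (2768 bases, 5 exons) 65.9 to 67.3. NEAT1 (22743 bases, 1 exon) had 31.4, 33.1, 48.1 and 52.0 per kb in the order used for MALAT1. GAS5 (1698 bases, 8 exons) had 30.7, 34.2, 26.0 and 30.3. These values depend on the transcript length used, and the annotation behind the counts was not given, so NEAT1 and GAS5 are not ranked. KCNQ1OT1 (91667 bases, 1 exon) was the lowest by these lengths, at 9.89, 9.40, 13.4 and 13.0 per kb. The table gives 1 value per symbol, so the short and long isoforms of NEAT1 were not separated. NEAT1, MALAT1, KCNQ1OT1 and SNHG1 lie on chromosome 11, TUG1 on chromosome 22 and GAS5 on chromosome 1.

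The 6 lncRNAs were set beside all other features. At a mean of at least 20 normalized counts, 8575 features remained, and 5.13% of them were lower by 1.5-fold or more in TGFb1 over shCtrl as log2 of the normalized count + 1, while 3.56% were that much higher. Of the 6 lncRNAs 1, NEAT1, was lower and none higher. In the library titled shPJA/TGFb1 over shPJA1, where 4.33% of all features were lower by that much and 3.52% higher, it was again NEAT1 alone among the 6, and 0 were higher. In both of these pairs 34 features, or 0.397%, were lower by 1.5-fold, NEAT1 among them. With the GC trend removed its ratio in the library titled shPJA/TGFb1 over shPJA1 was 0.670, just short of 1.5-fold. NEAT1 was chosen for such values, so nothing is read from these counts. In shPJA1 over shCtrl 0 of 6 passed 1.5-fold in either direction, against 3.17% of all features lower and 3.21% higher.

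Features with a mean of at least 400 were also taken, a limit set after the values were seen. Of these 817 features 0.857% were lower by 1.5-fold in TGFb1 over shCtrl and 0.245% in the library titled shPJA/TGFb1 over shPJA1, and 1 feature, NEAT1, in both (0.122%). By rank from the lowest, NEAT1 was number 7 and number 2 of 817 in these pairs. KCNQ1OT1 was number 17 and number 6. Among the 8575 features with a mean of at least 20, NEAT1 was number 326 and number 324, and KCNQ1OT1 number 732 and number 695. Both RNAs were chosen for such values, so nothing is read from these ranks. The median log2 ratio of the 6 lncRNAs was 0.008 in TGFb1 over shCtrl and -0.05 in the library titled shPJA/TGFb1 over shPJA1, against 0.02 and 0.004 over the 8575 features.

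**Figure D3:**
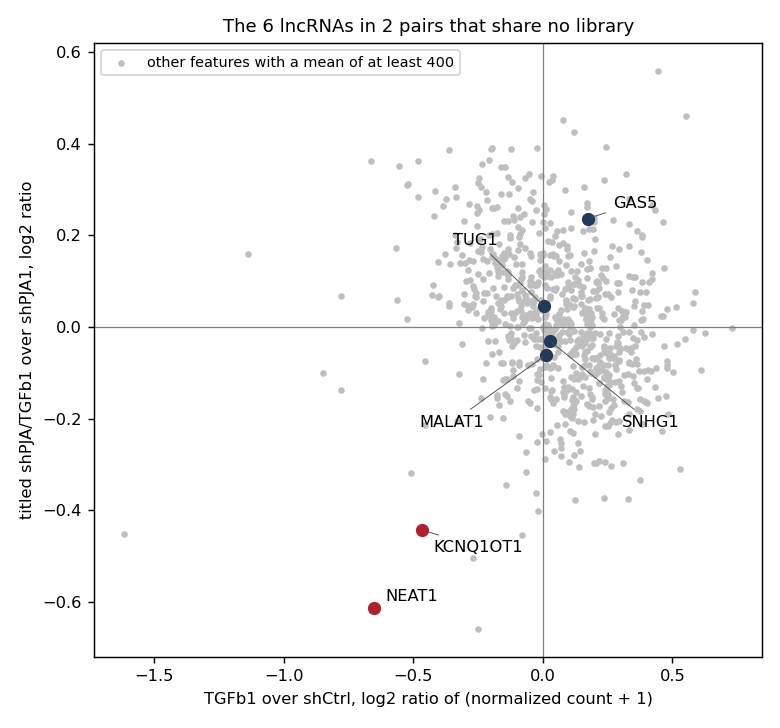
Log2 ratios of (normalized count + 1) in the library titled shPJA/TGFb1 over shPJA1 (vertical axis) and TGFb1 over shCtrl (horizontal axis), pairs that share no library. Grey points are the other features with a mean of at least 400, red points NEAT1 and KCNQ1OT1, dark points the remaining lncRNAs, of which GAS5 and SNHG1 have means under 400. NEAT1 lies at the lower left, with ratios of 0.653 and 0.637.

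The 4 lncRNAs that were not chosen for their values were tested in an edgeR quasi-likelihood fit of 10210 genes with additive hairpin and TGFb1 terms by title, which leaves 1 residual degree of freedom. It called 0.0392% of genes for TGFb1 and 0.00979% for the hairpin at an adjusted p under 0.05. None of MALAT1, TUG1, GAS5 and SNHG1 was called for either term, and each had an adjusted p of 0.999 for TGFb1 and 1.00 for the hairpin (edgeR, Benjamini-Hochberg). For TGFb1 the log2 change was -0.03 ± 0.16 (SE) for MALAT1, 0.02 ± 0.16 for TUG1, 0.20 ± 0.27 for GAS5 and -0.007 ± 0.19 for SNHG1. For the hairpin it was 0.02 ± 0.16, 0.09 ± 0.16, -0.18 ± 0.28 and 0.006 ± 0.19 in the same order. The unadjusted p was under 0.05 for 383 genes with TGFb1 and 235 with the hairpin in the edgeR fit. DESeq2 on the same model called 0 genes for either. It left uncalled SMAD7 for TGFb1, at a log2 change of 1.10, and PJA1 for the hairpin, at -1.82, which edgeR both called. The lack of a call is therefore not read as a lack of change.

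The protein partners of NEAT1 in paraspeckles form a list of 27 genes. Of these, which all had a mean of at least 20, 1 (3.70%) was lower by 1.5-fold and 0 were higher in TGFb1 over shCtrl, against 5.13% and 3.56% of all features, with a median log2 ratio of -0.06. In the library titled shPJA/TGFb1 over shPJA1, 0 were lower and 0 higher, against 4.33% and 3.52% of all features, with a median of -0.005. NONO, which together with SFPQ binds and stabilises NEAT1, had 425.4 normalized counts in the library titled shPJA/TGFb1, 395.2 in TGFb1, 413.3 in shPJA1 and 454.7 in shCtrl. TAF15, an RNA-binding protein, was the 1 that passed. It had 79.9 normalized counts in the library titled shPJA/TGFb1 (49 reads), 54.1 in TGFb1 (95 reads), 101.7 in shPJA1 (113 reads) and 132.1 in shCtrl (113 reads). Its ratio was 0.410 in TGFb1 over shCtrl (0.309 to 0.543) and 0.785 in the library titled shPJA/TGFb1 over shPJA1 (0.550 to 1.11). The fit gave TAF15 a log2 change of -0.88 ± 0.23 (SE) for TGFb1 with an adjusted p of 0.127 by edgeR, which misses the threshold.

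Nuclear speckle genes, the partners of MALAT1, numbered 14, which all had a mean of at least 20. In TGFb1 over shCtrl 1 (7.14%) was lower by 1.5-fold and 0 were higher, against 5.13% and 3.56% of all features. That gene was the splicing factor U2AF2 at 0.626 (0.411 to 0.961), and at 0.703 with the GC trend removed it no longer passed. None of the 14 passed in either direction in the library titled shPJA/TGFb1 over shPJA1, against 4.33% of all features lower and 3.52% higher. SRSF3, an SR splicing protein, stood at 324.4 normalized counts in the library titled shPJA/TGFb1, 348.0 in TGFb1, 246.7 in shPJA1 and 240.8 in shCtrl. Its ratio was 1.45 in TGFb1 over shCtrl (1.23 to 1.70) and 1.31 in the library titled shPJA/TGFb1 over shPJA1 (1.09 to 1.58), with an adjusted p of 0.968 for TGFb1 by edgeR. The list's median log2 ratio was 0.01 in TGFb1 over shCtrl and -0.09 in the library titled shPJA/TGFb1 over shPJA1.

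RNase P, which trims MALAT1 and the long NEAT1 isoform, holds a catalytic RNA, RPPH1, and shares proteins with RNase MRP, whose RNA is RMRP. RPPH1 had 502.0 normalized counts in the library titled shPJA/TGFb1, 238.6 in TGFb1, 449.3 in shPJA1 and 527.1 in shCtrl. RMRP had 136.9, 38.2, 103.5 and 116.9 in the same order. Only the TGFb1 library was low for these RNAs. In TGFb1 over shCtrl the ratio was 0.453 for RPPH1 (0.395 to 0.518) and 0.326 for RMRP (0.236 to 0.449). In the library titled shPJA/TGFb1 over shPJA1 it was 1.12 (0.966 to 1.29) for RPPH1 and 1.32 (0.986 to 1.77) for RMRP. The log2 ratios of the pair with the hairpin and the pair without it differed by 1.30 ± 0.14 for RPPH1 and 2.02 ± 0.31 for RMRP (counting SE), against 0.04 ± 0.10 for NEAT1. Their transcripts are rich in GC, at 64.6% for RPPH1 and 63.1% for RMRP, and with the GC trend removed the TGFb1 over shCtrl ratios were 0.517 and 0.370. Neither RNA was called for TGFb1, with adjusted p of 0.749 and 0.985 by edgeR. Of 13 protein genes of RNase P and RNase Z, 9 had a mean of at least 20, and of those 2 were higher and 0 lower by 1.5-fold in TGFb1 over shCtrl, against 3.56% and 5.13% of all features. In the library titled shPJA/TGFb1 over shPJA1 1 was higher and 0 lower, against 3.52% and 4.33%, and in shPJA1 over shCtrl 0 were higher and 2 lower, against 3.21% and 3.17%. RPP40, a protein subunit of RNase P, was at 1.63 (1.01 to 2.72) in TGFb1 over shCtrl and at 1.10 (0.623 to 1.89) in the library titled shPJA/TGFb1 over shPJA1.

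The other snoRNA hosts went different ways. Of 22 listed, 15 were in the table and 8 had a mean of at least 20. In TGFb1 over shCtrl 2 of the 8 were lower by 1.5-fold and 0 higher, against 5.13% and 3.56% of all features. For the library titled shPJA/TGFb1 over shPJA1 0 were lower and 1 higher, against 4.33% and 3.52%. SNHG3 had 394.5 normalized counts in the library titled shPJA/TGFb1, 387.3 in TGFb1, 303.4 in shPJA1 and 296.9 in shCtrl. Both libraries titled with TGFb1 were thus higher for this RNA, with ratios of 1.30 in TGFb1 over shCtrl (1.13 to 1.51) and 1.30 in the library titled shPJA/TGFb1 over shPJA1 (1.10 to 1.54). The fit gave SNHG3 0.37 ± 0.17 (SE, log2) for TGFb1, with an adjusted p of 0.999 by edgeR. SNHG5 was lower in TGFb1 over shCtrl, at 0.386 (0.245 to 0.603). It stood at 1.40 in the library titled shPJA/TGFb1 over shPJA1 (0.813 to 2.37). SNHG5 had 44.0 normalized counts in the library titled shPJA/TGFb1, 21.6 in TGFb1, 31.5 in shPJA1 and 56.1 in shCtrl, the highest. Its ratio in shPJA1 over shCtrl was 0.562. In that pair 2 of the 8 hosts were lower by 1.5-fold and 0 higher, against 3.17% and 3.21% of all features. Of the nonsense-mediated decay factors, which degrade spliced GAS5 and SNHG1, 9 of 10 had a mean of at least 20. In TGFb1 over shCtrl 0 of these 9 passed 1.5-fold in either direction, against 5.13% of all features lower and 3.56% higher. In the library titled shPJA/TGFb1 over shPJA1 0 were higher and 2 lower, against 3.52% and 4.33% of all features. They were UPF3B at 0.562 (0.234 to 1.22) and SMG9 at 0.613 (0.355 to 1.02), both on at most 62 reads in that pair. All 342 genes typed as snoRNAs in GENCODE 29 had means under 20, and together they took 0.0203% to 0.0235% of the reads.

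Among 37 other named non-coding RNAs, 23 were in the table and 8 had a mean of at least 20, RPPH1 and RMRP included. In TGFb1 over shCtrl 2 were lower by 1.5-fold and 0 higher, against 5.13% and 3.56% of all features, those being RPPH1 and RMRP. Another 2 were lower and 1 was higher in the library titled shPJA/TGFb1 over shPJA1, against 4.33% and 3.52%. MIR17HG was at 0.549 (0.241 to 1.14) there, PVT1 at 0.634 (0.418 to 0.940) and MIR22HG at 2.01 (1.01 to 4.03). MIR22HG, the host of miR-22, had 32.6 normalized counts in the library titled shPJA/TGFb1, 33.6 in TGFb1, 16.2 in shPJA1 and 25.7 in shCtrl. MIR17HG, the host of the miR-17 to miR-92 cluster, had 16.3, 14.8, 29.7 and 22.2 in the same order. Levels of MIR22HG and MIR17HG were based on at most 59 reads, and the ratio of MIR22HG in TGFb1 over shCtrl, 1.31, had an interval from 0.789 to 2.24.

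**Figure D4:**
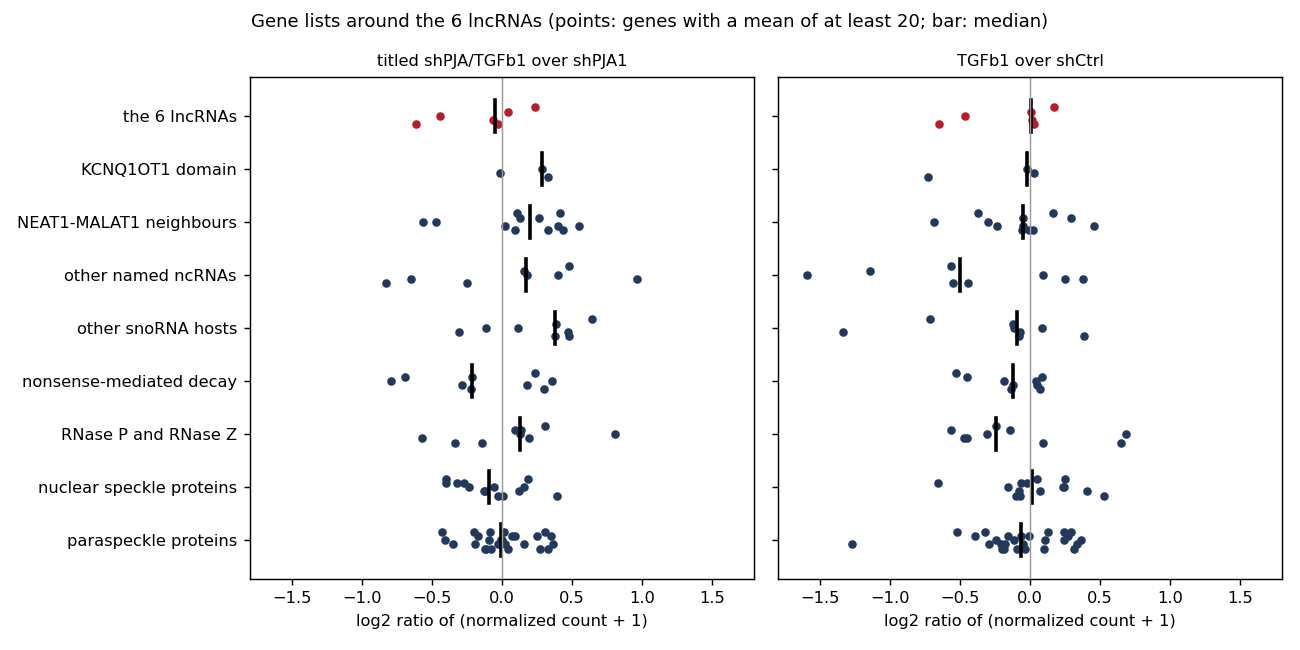
Log2 ratios of (normalized count + 1) for the genes of each list with a mean of at least 20, in the library titled shPJA/TGFb1 over shPJA1 (left) and TGFb1 over shCtrl (right). Points are genes and the bar is the list's median. NEAT1 and KCNQ1OT1 are the 2 lowest points of the top row in both panels, while the paraspeckle medians are -0.005 and -0.06.

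The protein-coding neighbourhood of NEAT1 and MALAT1 was measured too. Of 17 genes around them, 12 had a mean of at least 20, and 1 (8.33%) was lower by 1.5-fold and 0 higher in TGFb1 over shCtrl, against 5.13% and 3.56% of all features. That gene was EHBP1L1, a membrane trafficking adaptor, with 27.7 normalized counts in the library titled shPJA/TGFb1, 30.2 in TGFb1, 41.4 in shPJA1 and 49.1 in shCtrl. Its ratio in TGFb1 over shCtrl was 0.615, and at 0.702 with the GC trend removed it no longer passed. In the library titled shPJA/TGFb1 over shPJA1 it was 0.669, on 17 and 46 reads, and at 0.598 with that trend removed it passed. Without that removal 0 of the 12 genes passed in either direction in this pair, against 4.33% of all features lower and 3.52% higher. Of the 12, 10 were above 0 there, with a median log2 ratio of 0.20. FRMD8, a FERM domain gene, was at 1.23 (0.829 to 1.87) in TGFb1 over shCtrl. The imprinted domain of KCNQ1OT1 was little read, with 3 of 13 genes at a mean of at least 20. Those 3 were PHLDA2, CARS and NAP1L4. CDKN1C, a cyclin-dependent kinase inhibitor of the domain, had 0 reads in every library. PHLDA2, an imprinted growth regulator, had 34.2 normalized counts in the library titled shPJA/TGFb1, 28.5 in TGFb1, 27.0 in shPJA1 and 47.9 in shCtrl, so shCtrl alone was high. Its ratio was 0.594 in TGFb1 over shCtrl (0.385 to 0.921), 0.675 with the GC trend removed, and 1.27 in the library titled shPJA/TGFb1 over shPJA1 (0.690 to 2.29). NAP1L4, a histone chaperone at the edge of the domain, had 184.2, 188.5, 185.5 and 184.7 in the same order. Of 6 genes next to TUG1, GAS5 and SNHG1, 5 had a mean of at least 20. In TGFb1 over shCtrl 0 of these 5 passed 1.5-fold in either direction, against 5.13% of all features lower and 3.56% higher. SLC3A2, an amino acid transporter subunit beside SNHG1, had 611.2, 672.6, 557.3 and 552.8 normalized counts.

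Features whose profile over the 4 libraries was most like that of NEAT1 were sought among 6165 features with a mean of at least 50, by the root mean square difference of centred log2 values. The nearest was PGAM5, a mitochondrial phosphatase, at 0.062, followed by AGGF1, RAB17, SPIN3 and ZNF337, at 0.067 to 0.075. AGGF1 encodes an angiogenic factor and RAB17 an epithelial small GTPase. PGAM5 had 52.2 normalized counts in the library titled shPJA/TGFb1, 50.7 in TGFb1, 74.7 in shPJA1 and 77.1 in shCtrl, from 32 to 89 reads. KCNQ1OT1 was number 23 in this order, at 0.118. Nearest to KCNQ1OT1 were C4orf3 at 0.033, the liver transcription factor FOXA2 at 0.039, ZFYVE1, LOC100287314 and LOC644961. FOXA2 had 60.3, 54.1, 80.1 and 80.6 normalized counts in the order of libraries used for PGAM5, from 37 to 95 reads. A profile of 4 values shared by all genes of a library describes likeness only.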

How the data were processed

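RNA of HepG2 cells was sequenced in 4 libraries, prepared from total RNA with an Illumina TruSeq RNA kit per the labels' protocols. The submitters' processing notes name TopHat2 2.0.10, Cufflinks, Trimmomatic and FastQC, without roles. Genome build, annotation and counting settings were not given in these sources. The deposited table is named as FPKM, but in each library 100% of its values were whole multiples of 1 step (tolerance 1e-06), so the deposited signal is whole reads divided by a size factor per library (0.614 in the library titled shPJA/TGFb1, 1.76 in TGFb1, 1.11 in shPJA1 and 0.856 in shCtrl). Median-ratio size factors computed from the recovered reads came out equal.

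Libraries were grouped by title. Plain ratios of normalized counts were given exact conditional 95% Poisson intervals, which cover counting error only. Lists and backgrounds added 1 to each normalized count before taking log2, so changes of low genes are understated. Genes with at least 40 reads were fitted with edgeR 4.0.16 in R 4.3.3 (TMM, additive hairpin and TGFb1 terms, 1 residual degree of freedom, common coefficient of variation 10.9%), and with DESeq2 1.42.0 as an alternative. Steps were tested on simulated data. GENCODE 29 was matched by symbol for 86.4% of the 23368 features, and GC content was available for 92.1% of those with a mean of at least 20. In 1 alternative the trend on GC content (lowess, span 0.3) was removed. Other steps ran in Python 3.11.15 with scipy 1.17.1, statsmodels 0.14.6 and pandas 2.3.3.

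The 6 lncRNAs and all lists were chosen with earlier results of these data known. Up to 4 genes of each list with the largest ratio at a mean of at least 20 were named, and the 5 features most like NEAT1 or KCNQ1OT1. NONO, FRMD8, SLC3A2, CDKN1C and the limit of a mean of at least 400 were chosen after their values were seen. A few gene values are withheld and not reported here.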

Additional observations from a re-analysis of the deposited data

Results flagged for a closer look

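Of 99 genes screened on the lists around the 6 lncRNAs, 2 had counting intervals on opposite sides of 1 in the 2 TGFb1 pairs. The share of all features with such intervals was not computed, so nothing is read from this count. Each pair is 1 library against 1 library, so the difference was not tested. SFPQ, a core paraspeckle protein, was at 1.29 in the library titled shPJA/TGFb1 over shPJA1 (1.12 to 1.48) and at 0.865 in TGFb1 over shCtrl (0.775 to 0.967). SRRM2, a scaffold of nuclear speckles, was at 1.11 (1.04 to 1.20) and 0.896 (0.842 to 0.954) in the same pairs. With the GC trend removed the values were 1.26 and 0.884 for SFPQ and 1.04 and 0.983 for SRRM2. NEAT1, which SFPQ binds, was below 1 in both pairs.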

How the results depend on the processing

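Of 210 recomputed ratios of the 6 lncRNAs, 203 stayed within the counting interval of the reported value, and the other 7 all belonged to MALAT1. Under quantile normalization every MALAT1 ratio is 1 by construction, because MALAT1 had the same rank in every library. With the GC trend removed its ratio in shPJA1 over shCtrl became 0.968. Its ratio in the library titled shPJA/TGFb1 over shPJA1 became 1.01 with that trend removed. The difference between its log2 ratios of the TGFb1 pairs, -0.07, became 0.17 with that trend removed. The cause was not tested. NEAT1 ranged from 0.607 to 0.638 in TGFb1 over shCtrl and from 0.646 to 0.670 in the library titled shPJA/TGFb1 over shPJA1, where the highest value no longer passed 1.5-fold. KCNQ1OT1 ranged from 0.686 to 0.726 and from 0.727 to 0.756. No scaling moved the median of all features by 0.1 on the log2 scale.

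The number of features beyond 2-fold followed the filter and pseudocount, since low counts then enter or drop out. In shPJA1 over shCtrl the 1102 features became 1819 without a filter, 44 at a mean of at least 20 and 134 with a pseudocount of 5. In TGFb1 over shCtrl 1183 became 2035, 100 and 171. For the library titled shPJA/TGFb1, 1331 over TGFb1 became 2100, 112 and 234, and 1617 over shCtrl became 2775, 141 and 349. Over shPJA1 its 1489 became 93 at a mean of at least 20 and 257 with a pseudocount of 5.

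The 4 genes called for TGFb1 became 11 with the TGFb1 term alone and 0 with DESeq2, and the 1 called for the hairpin became 0 with DESeq2. No paired analysis was possible because the labels carry no replicate numbers, and with 1 library per condition no library could be left out. Nothing here separates a condition from its library.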
